A study of Mus musculus with 2 samples.

Results

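The 10 genes described here are transcription factors, enzymes, stress effectors and feedback inhibitors of the ATF4 and CHOP arm of the integrated stress response. They were chosen by name, as Atf4, Ddit3, Atf3, Asns, Psat1, Chac1, Sesn2, Gdf15, Trib3 and Ppp1r15a, and make up 10 of the 26082 genes in the deposited tables, all with a value in both libraries. The cells were wild-type primary fibro-adipogenic progenitors (FAPs), mesenchymal muscle cells able to form fat, sorted from mouse hind limb muscle by the study's methods. By the labels, cells of the first group were transfected with plasmids for overexpression of TGFBR3, the type III receptor for TGF-β ligands. Cells of the other group received the vector, and both groups were kept under adipogenic differentiation. The medium was DMEM containing insulin at 10 μg/ml, dexamethasone at 0.25 μM, IBMX at 0.5 mM and FBS at 20%. There was 1 RNA-seq library per group, so no test was possible, and an interval given below covers counting error only. The labels name no strain, age or sex, and do not say how many animals or cultures were pooled.

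In the integrated stress response, kinases that sense a lack of amino acids, misfolded protein in the endoplasmic reticulum, double-stranded RNA or a lack of heme phosphorylate the translation factor eIF2α. General translation falls, while translation of the ATF4 mRNA increases, and the ATF4 protein then switches on genes for amino acid supply, redox balance and feedback control. Ddit3 encodes CHOP, a basic leucine zipper (bZIP) factor downstream of ATF4 that pairs with C/EBP proteins, is linked to cell death under prolonged stress and blocks adipocyte differentiation when forced into preadipocytes. The ATF4 protein and the phosphorylation of eIF2α were not measured here.

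The library labelled TGFBR3 overexpression held 62321027 counts and the library labelled vector control 83779203. Tgfbr3, the gene on the plasmid, was at 36.9 FPKM (fragments scaled by transcript length and library total) in the first and 35.1 in the second, a log2 ratio of 0.07 with an interval of 0.04 to 0.10, and at −0.06 after centring on the median gene. Relative to the median gene it was slightly lower in the library labelled for its overexpression, and every direction below is that of the labels. Whether reads from the plasmid's transcript enter this count is not given in the sources used here. Of the 8 FAP markers, 6 had a mean of at least 1 FPKM, of which 2 were higher and 4 lower, with a median log2 ratio of −0.09. Col1a1 differed most, at 467 against 870 FPKM and a ratio of −0.89, or −1.02 after centring. Ly6a stood at 1013 against 706 with a ratio of 0.52, and Cd34 at 20.6 against 25.7 with −0.30. Pdgfra, the marker that defines FAPs, was at 30.5 and 32.6, while Lum and Dpp4 were under 1 FPKM in both libraries. The summed level of 8 macrophage markers was 0.78 against 0.49 FPKM, with Adgre1, Tyrobp and Fcer1g listed at 0 in both libraries. That of the 5 of 8 muscle cell markers found was 1.80 against 1.45, and that of 6 endothelial markers 2.40 against 2.03. Ribosomal RNA genes, with those encoded in mitochondria included, took 0.309% of the counts in the first library and 1.22% in the second. In bulk RNA, fewer cells of a type and less RNA per cell cannot be told apart.

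Sequences upstream of the start are shown for Ddit3 and Gdf15, the genes with the largest differences below, and for Atf3 and Chac1, whose sequence holds the core of the element bound by ATF4 and C/EBP dimers. They were taken from RefSeq (GRCm38.p6) and are written 5′ to 3′ on the strand of the gene, without bases that lie in annotated exons of the same gene. Exons of other genes were not taken out, and the stretch of Ddit3 lies within the span of the antisense gene Gm4189. Capitals mark that core, TGATGNAA on either strand.
Ddit3, chr10:127290543-127290773, plus strand: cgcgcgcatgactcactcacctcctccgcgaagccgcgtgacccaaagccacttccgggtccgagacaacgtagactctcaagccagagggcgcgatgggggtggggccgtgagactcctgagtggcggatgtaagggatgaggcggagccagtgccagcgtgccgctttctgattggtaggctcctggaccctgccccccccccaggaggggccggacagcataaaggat
Gdf15, chr8:70632457-70632706, minus strand: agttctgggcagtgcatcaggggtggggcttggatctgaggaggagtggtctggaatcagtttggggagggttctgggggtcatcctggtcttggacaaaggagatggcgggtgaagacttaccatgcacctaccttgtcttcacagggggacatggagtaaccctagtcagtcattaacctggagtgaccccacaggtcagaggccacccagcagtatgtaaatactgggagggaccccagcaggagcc
Atf3, chr1:191183341-191183583, minus strand: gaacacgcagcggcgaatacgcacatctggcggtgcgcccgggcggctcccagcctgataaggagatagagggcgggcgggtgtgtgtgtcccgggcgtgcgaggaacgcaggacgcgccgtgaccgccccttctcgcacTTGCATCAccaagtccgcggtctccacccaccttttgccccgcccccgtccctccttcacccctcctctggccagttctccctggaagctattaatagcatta
Chac1, chr2:119350992-119351228, plus strand: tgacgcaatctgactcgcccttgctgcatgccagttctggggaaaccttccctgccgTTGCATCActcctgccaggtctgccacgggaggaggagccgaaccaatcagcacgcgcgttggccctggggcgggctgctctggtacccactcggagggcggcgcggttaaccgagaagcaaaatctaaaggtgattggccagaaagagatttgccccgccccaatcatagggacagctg
The start is the one in RefSeq, which for Atf3 and Psat1 lies inside the gene span given below. In the 250 bases before it, the core occurred in 3 of 10 members and in 3.45% of 32807 RefSeq promoters. It lay 110 to 103 bases before the start of Atf3 and 193 to 186 before that of Chac1, as TTGCATCA on the strand shown, and 23 to 16 before that of Asns, as TGATGAAA in annotated exon sequence that is not shown. The cyclic AMP response element TGACGTCA, searched on both strands, was found in 1 member, Ppp1r15a, and in 1.55% of promoters. The ER stress element (CCAAT and CCACG, 9 bases apart, on either strand) was found in 0 members and in 0.113% of promoters. No exact match to these elements was in the window of Ddit3 or Gdf15. Sites that differ from the letters, or that lie more than 250 bases upstream, were not searched for. The absence of a match therefore does not show that a gene lacks the element. A match is a run of letters and was not tested as a binding site.

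Ddit3 was far higher in the library labelled TGFBR3 overexpression, and Atf4 was not. Gdf15 was also higher by more than 2-fold, and the other members with a mean level of at least 1 FPKM were 1.01 to 1.37-fold as high as in the vector control. Values below are log2 ratios of (FPKM + 1), in which the library labelled TGFBR3 overexpression is divided by the one labelled vector control, a scale that understates the change of low genes. A value of at least 1 is called 2-fold higher. By this rule 2 of 10 members were 2-fold higher, against 3.14% of the 11213 genes with a mean of at least 1 FPKM. None of the 10 was 2-fold lower, against 1.03% of those genes. Of the members, 9 passed that level filter, and Atf3 did not. At 1.5-fold the members counted were again Ddit3 and Gdf15, against 13.3% of genes. All 10 ratios were above 0, as were those of 63.1% of the 11213 genes.

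The median gene was not at 0. Over the 11213 genes the median log2 ratio was 0.14, and that of the 10 members was 0.32. Centring on the median of the 10626 genes with at least 1 FPKM in both libraries takes 0.13 from every ratio. After it, 9 of 10 members stayed above 0, Atf4 moved to −0.11, and the median of the 10 was 0.20. Genes called 2-fold higher then made up 2.39% and those called lower 1.63%, so that the higher share of all such genes went from 75.2% to 59.4%. Ddit3 and Gdf15 were past 2-fold on both scales.

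**Figure D1:**
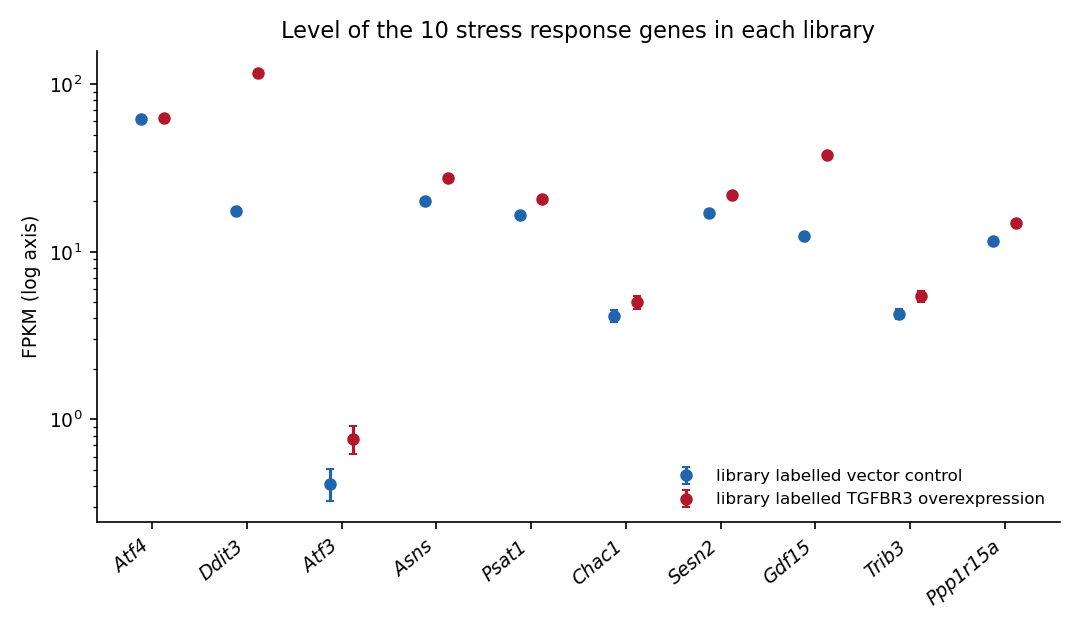
Level in FPKM (log axis) of the 10 genes in the library labelled vector control (blue) and the library labelled TGFBR3 overexpression (red), 1 library each, with 95% exact counting intervals as bars. Ddit3 went from 17.5 to 116 FPKM and Gdf15 from 12.4 to 38.0, while Atf4 stood at 61.8 and 62.7.

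Among the transcription factors, Atf4 (ENSMUSG00000042406), on chromosome 15 from 80255184 to 80257541 of mm10, had 10032 counts where the label was TGFBR3 overexpression and 13463 where it was vector control. Its level was 62.7 FPKM against 61.8, and the log2 ratio was 0.02 with an interval of −0.02 to 0.06. It changed sign to −0.11 after centring and was 0.12 with the trend over exon GC content removed. Before either change the libraries could not be told apart at this gene within counting error, and its direction depended on the scale. Of the 11213 genes, 38.8% had a lower ratio.

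Ddit3 (ENSMUSG00000025408) lies on chromosome 10 from 127290774 to 127296288, plus strand. Its counts were 13475 and 2775, although the first of these libraries is the smaller, and its level was 116 FPKM against 17.5. The plain ratio of FPKM was 6.62-fold with a counting interval of 6.35 to 6.90, and the log2 ratio was 2.66 with an interval of 2.60 to 2.72. Only 47 of the 11213 genes had a larger ratio. In order of level among all genes it stood at rank 395 in the library labelled TGFBR3 overexpression, against rank 2589 in the one labelled vector control.

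Atf3 (ENSMUSG00000026628; chromosome 1, 191170296 to 191218039, minus strand), a stress-induced bZIP factor that often represses its targets, was close to the limit of measurement. It had 111 and 82 counts and a level of 0.76 and 0.41 FPKM. The log2 ratio was 0.32 with an interval of 0.17 to 0.47, while the plain ratio was 1.85-fold with a lower counting bound of 1.38. At this level the pseudocount of 1 exceeds the measured values, and the difference between the 2 scales is largest for this member.

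Members for amino acid supply were modestly higher. Asns (ENSMUSG00000029752; chromosome 6, 7675169 to 7693254, minus strand), which makes asparagine, had 27.5 FPKM against 20.1 and a log2 ratio of 0.43 with an interval of 0.38 to 0.49. Psat1 (ENSMUSG00000024640; chromosome 19, 15904678 to 15947337, minus strand), an enzyme of serine synthesis, had 20.6 against 16.7 and a ratio of 0.29 with an interval of 0.24 to 0.34. After centring these were 0.31 and 0.16.

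Stress effectors split into Gdf15 and the rest. Gdf15 (ENSMUSG00000038508; chromosome 8, 70629393 to 70632456, minus strand), a secreted hormone that lowers food intake through a hindbrain receptor and is used as a stress marker, had 4771 and 2119 counts. Its level was 38.0 FPKM against 12.4, a plain ratio of 3.07-fold with an interval of 2.91 to 3.23 and a log2 ratio of 1.54 with an interval of 1.47 to 1.61. There were 128 of the 11213 genes above it. Sesn2 (ENSMUSG00000028893; chromosome 4, 132492032 to 132510501, minus strand), a leucine sensor that restrains mTORC1, had 21.8 FPKM against 17.1 and a log2 ratio of 0.33 with an interval of 0.28 to 0.38. Chac1 (ENSMUSG00000027313; chromosome 2, 119351229 to 119354381, plus strand), which breaks down glutathione, had 4.99 against 4.13 and a ratio of 0.22 with an interval of 0.09 to 0.36.

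Both feedback inhibitors were slightly higher. Ppp1r15a (ENSMUSG00000040435; chromosome 7, 45522916 to 45526268, minus strand) encodes GADD34, which brings protein phosphatase 1 to eIF2α and so ends the response. It had 14.8 FPKM against 11.6 and a log2 ratio of 0.33 with an interval of 0.26 to 0.40. Trib3 (ENSMUSG00000032715; chromosome 2, 152337422 to 152344032, minus strand), a pseudokinase induced by ATF4 and CHOP that holds ATF4 back, had 5.41 against 4.27 and a ratio of 0.28 with an interval of 0.16 to 0.40. Neither came near 2-fold on any scale tried.

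**Figure D2:**
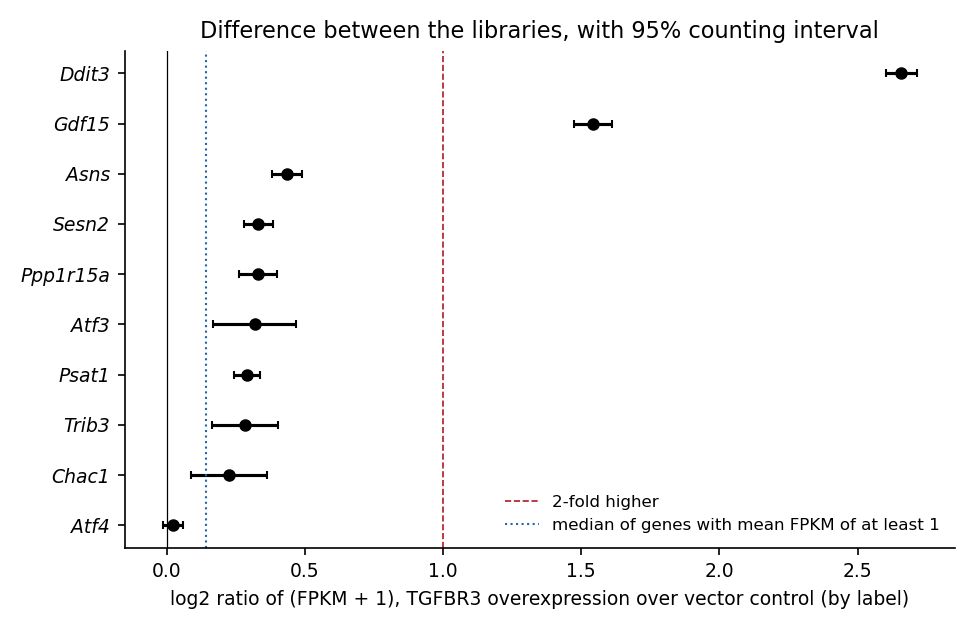
Log2 ratio of (FPKM + 1) of each of the 10 genes, the library labelled TGFBR3 overexpression divided by the one labelled vector control, with 95% exact counting intervals as bars. Ddit3 at 2.66 and Gdf15 at 1.54 stand past 1, the 2-fold line, and Atf4 at 0.02 is the lowest. Atf4 moves to −0.11 after centring and to 0.12 with the trend over exon GC content removed.

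The comparison posed for this group of genes is whether Ddit3 moves with the rest of the arm. The median of the other 9 was 0.32, and Ddit3 lay 2.34 above it on the log2 scale. The 9 ranged from 0.02 to 1.54, and the gap from Ddit3 down to Gdf15, the next, was 1.12. Without Ddit3 and Gdf15 the median of the remaining 8 was 0.31. The intervals of Ddit3 and of Gdf15 overlapped neither each other nor that of any other member. With 1 library per group, how far the genes would spread between cultures was not measured.

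The order of levels within a library also differed. In the library labelled vector control, Ddit3 had 28.4% of the level of Atf4, and in the library labelled TGFBR3 overexpression 185%, both per length in FPKM. Ddit3 was there the highest of the 10, followed by Atf4, Gdf15, Asns, Sesn2, Psat1, Ppp1r15a, Trib3, Chac1 and Atf3. Of neighbours in that order, only the counting intervals of Trib3 and Chac1 overlapped. In the vector control the order was Atf4, Asns, Ddit3, Sesn2, Psat1, Gdf15, Ppp1r15a, Trib3, Chac1 and Atf3. Here Ddit3 could not be told from Sesn2 within its interval, nor Sesn2 from Psat1, Gdf15 from Ppp1r15a or Trib3 from Chac1. The summed level of the 10 was 312 FPKM against 166, and without Ddit3 it was 196 against 148. Ddit3 alone made up 37.1% of the sum in one library and 10.6% in the other.

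**Figure D3:**
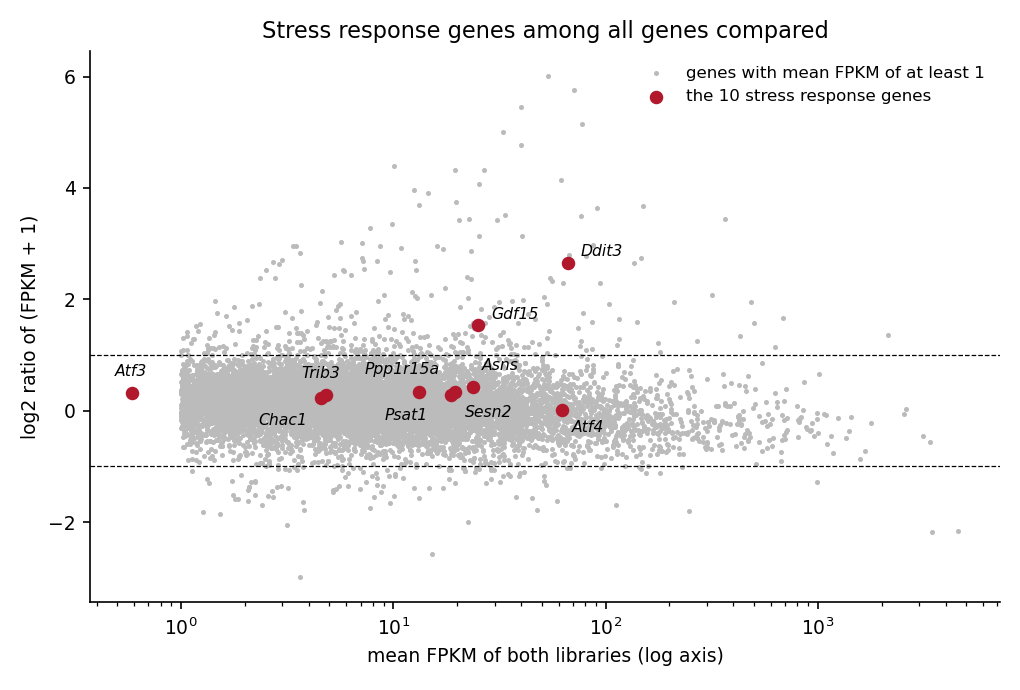
Log2 ratio of (FPKM + 1) against mean level in FPKM (log axis) for the 11213 genes with a mean of at least 1 FPKM, with the 10 members in red, among them Atf3 with a lower mean. Ddit3 and Gdf15 lie above the 2-fold line at 1, and the other members with a mean of at least 1 FPKM lie among the bulk of genes, whose median is 0.14.

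Base composition moved with the ratios over all genes. In 20 bins of exon GC content, the median log2 ratio went from 0.45 in the bin of lowest GC to −0.25 in the bin of highest GC. The exons of the members held 47.9% GC in Psat1 to 61.2% in Gdf15. With the bin medians taken off, Ddit3 was at 2.55, Gdf15 at 1.79, Sesn2 at 0.46, Atf4 at 0.12 and Psat1 at 0.06. The gap between Ddit3 and Gdf15 was thus smaller on that scale, and both were still past 2-fold.

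Upstream of ATF4, the eIF2α kinases differed in direction. Eif2ak2, which encodes the double-stranded RNA sensor PKR and is itself an interferon-induced gene, was at 11.7 FPKM against 5.88, a log2 ratio of 0.89 with an interval of 0.82 to 0.95, and of 0.54 with the GC trend removed. Eif2ak3, which encodes PERK of the endoplasmic reticulum, was lower, at 3.33 against 6.30 with a ratio of −0.75 and an interval of −0.83 to −0.68. Eif2ak4, which encodes the amino acid sensor GCN2, was at 3.07 against 1.74 with a ratio of 0.57, and Eif2ak1, which encodes the heme-regulated kinase HRI, at 13.8 against 11.2 with a ratio of 0.28. None of the 4 was past 2-fold. These are mRNA levels and say nothing of kinase activity.

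Of 12 genes for subunits of eIF2, its exchange factor eIF2B and the eIF2α phosphatases, 10 were higher and 2 lower, 0 of them by 2-fold. The median was 0.46, or 0.33 after centring and 0.27 with the GC trend removed. The subunits of eIF2 itself had the highest ratios, with Eif2s2 at 0.97, Eif2s3x at 0.75 and Eif2s1 at 0.72. That order did not hold with the GC trend removed, where these were at 0.53, 0.41 and 0.28 and Eif2b2, a subunit of eIF2B, was the highest at 0.67. The background for the counts in this list and those below is the 11213 genes. Of these, 63.1% were higher, 3.14% 2-fold higher and 1.03% 2-fold lower.

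The bZIP partners and relatives of ATF4 and CHOP were split. Of 15 with a mean of at least 1 FPKM, 7 were higher and 8 lower, 0 by 2-fold, with a median of −0.23, which was −0.35 after centring and −0.12 with the GC trend removed. Maff, a small Maf protein, was at 43.9 FPKM against 83.0 and a log2 ratio of −0.90, and at −1.03 after centring, past 2-fold, but −0.81 with the GC trend removed. Cebpd, a C/EBP factor of early adipogenesis, was at 50.7 against 92.8 and a ratio of −0.86. Nfe2l2, which encodes the oxidative stress factor NRF2, was higher, at 65.4 against 35.0 with a ratio of 0.89, or 0.57 with the GC trend removed. Cebpb, named after its values were seen because C/EBPβ is the best known partner of CHOP, was at 89.4 against 160 with a ratio of −0.83, or −0.59 with the GC trend removed.

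Known targets of ATF4 did not follow Ddit3 in size. Of 12 aminoacyl-tRNA synthetases, which load tRNAs with amino acids, 11 were higher and 1 lower, 0 by 2-fold, with a median of 0.40. That median was 0.28 after centring and 0.26 with the GC trend removed. Nars at 0.93, Lars at 0.67 and Cars at 0.56 led the list, and with the GC trend removed they were at 0.70, 0.39 and 0.56. Of 8 amino acid transporters with a mean of at least 1 FPKM, 7 were higher and 1 lower, 0 by 2-fold, with a median of 0.35, or 0.22 after centring and 0.20 with the GC trend removed. The leading transporters were Slc7a5 at 0.88, Slc7a11, the cystine importer, at 0.67 and Slc3a2, the heavy chain shared by both, at 0.64. With the GC trend removed, Slc7a11 was at 0.22, below Slc6a9, a glycine transporter, at 0.49.

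Enzymes of serine, glycine, proline and asparagine metabolism had a median of 0.14, the median of all genes, and 0.01 after centring. Of 10 with a mean of at least 1 FPKM, 7 were higher and 3 lower, and after centring 5 and 5. Pycr1, an enzyme of proline synthesis, was the only one past 2-fold and it was lower, at 2.35 FPKM against 8.04 with a log2 ratio of −1.43. Phgdh, the entry enzyme of serine synthesis, was at 47.1 against 33.7 with a ratio of 0.47, and Mthfd2, of the mitochondrial folate pathway, had a ratio of 0.32.

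Of 14 other stress genes known as ATF4 targets, 7 were higher and 7 lower, with a median of −0.04, which was −0.16 after centring and 0.00 with the GC trend removed. Nupr1, a small stress-induced chromatin protein, was the only one past 2-fold, at 63.2 FPKM against 26.4 with a log2 ratio of 1.23 and an interval of 1.19 to 1.27. Herpud1, of the degradation pathway of the endoplasmic reticulum, was lower with a ratio of −0.71, and Stc2, a secreted glycoprotein, was higher with 0.68.

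**Figure D4:**
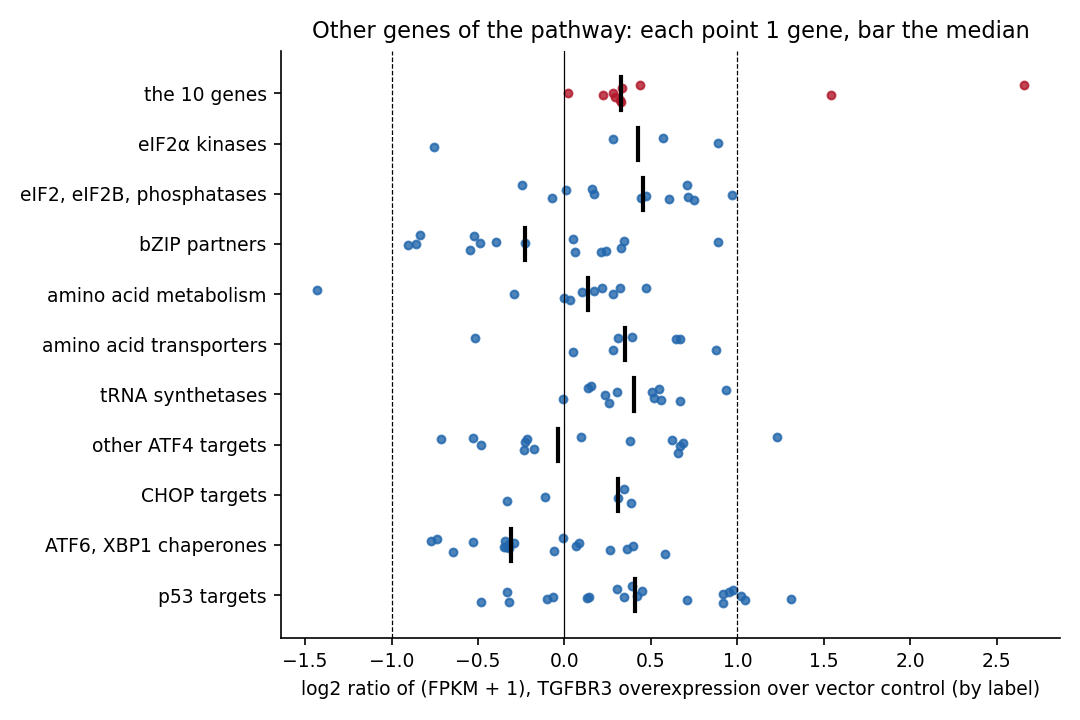
Log2 ratio of (FPKM + 1) of each gene with a mean of at least 1 FPKM in the pathway lists, 1 point per gene, with the median of each list as a bar and the 10 genes, Atf3 included, in red. Among the lists plotted, which leave out the interferon, DNA damage inducible and cell marker lists, medians run from −0.31 to 0.46. The lowest is the ATF6 and XBP1 list of chaperones and other genes, and the highest the eIF2, eIF2B and phosphatase subunits. Ddit3 stands at 2.66.

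The listed genes downstream of CHOP showed no shift of its size. That list holds none of the 10 members, so Trib3 at 0.28 and Gdf15 at 1.54 are not counted in it. Of the 5 with a mean of at least 1 FPKM, 3 were higher and 2 lower, 0 by 2-fold, with a median of 0.31, or 0.18 after centring and 0.00 with the GC trend removed. Ero1l, an oxidase of the endoplasmic reticulum, had a log2 ratio of 0.38, or 0.00 with the GC trend removed. Tnfrsf10b, which encodes the death receptor DR5, had 0.35, and Bbc3, which encodes the proapoptotic protein PUMA, had −0.33, or −0.09 with the GC trend removed. Bcl2l11, which encodes the proapoptotic protein BIM, was left out by the level filter, at 1.34 FPKM against 0.55 from 733 and 411 counts. Its log2 ratio was 0.59, and 1.28 without the pseudocount.

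Genes of the other arms of the unfolded protein response, run by ATF6 and XBP1, were mostly lower. The list of 18 holds chaperones, genes of protein degradation and the regulators Atf6, Xbp1 and Ern1. Of the 18, 6 were higher and 12 lower, 0 by 2-fold. The median was −0.31, or −0.43 after centring and −0.38 with the GC trend removed. Atf6 had the highest ratio of the list at 0.58, while Ern1 was at 0.26 and Xbp1 at −0.35. Pdia6 and Manf, which encode a disulfide isomerase and a secreted ER stress factor, had log2 ratios of −0.77 and −0.74. Sdf2l1, a cochaperone in the endoplasmic reticulum, had −0.64.

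Other programmes also differed between these libraries. All 8 interferon response markers were 2-fold higher, with a median log2 ratio of 3.13 and a summed level of 1811 FPKM against 254. The 5 genes with ratios nearest to that of Ddit3 were Gbp2 at 2.65, Ifi208 at 2.64, Gm2619 and Gm4951, both at 2.68, and Mx2 at 2.69, a likeness that rests on 1 ratio of 2 libraries. Without the pseudocount only Gbp2 of these 5 was close to Ddit3 at 6.40-fold, beside 6.62-fold for Ddit3. The plain ratio was 9.94-fold for Gm4951, 11.0-fold for Mx2 and 71.6-fold for Ifi208, and Gm2619 had 144 counts against 0. Of 20 genes of the p53 pathway, a list that also holds Bbc3 and Tnfrsf10b, 15 were higher and 5 lower, against 63.1% of the 11213 genes higher. Of the 20, 3 were 2-fold higher, against 3.14% of the 11213 genes. They were Mdm2, the p53 ubiquitin ligase, at 1.31, Gadd45a at 1.05 and Plk2 at 1.02. After centring, Gadd45a and Plk2 were at 0.92 and 0.89, short of 2-fold. With the GC trend removed, Mdm2 at 0.99 and Plk2 at 0.79 were short of it and Gadd45a at 1.05 was past it. Of 6 growth arrest and DNA damage inducible genes, Ddit3 itself and Gadd45a were 2-fold higher, and Gadd45b was at 0.55. Of 5 adipocyte markers with a mean of at least 1 FPKM, 1 was higher and 4 lower, 2 of them by 2-fold, and the summed level of all 8 was 38.0 FPKM against 73.1. The part of these programmes in the values of Ddit3 and Gdf15 was not tested.

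The neighbours of Ddit3 on chromosome 10 were also examined, as the 5 nearest genes on each side with more than 3 counts in either library, over 283 kb. Of these 10, 6 were higher and 4 lower, with a median of 0.02 and a range from −0.50 for Dctn2 to 1.28 for Mbd6. The level filter was not used here. Kif5a, Gm20492, Gm4189, Arhgap9, Gli1 and Stac3 had a mean under 1 FPKM, where the pseudocount holds a ratio near 0. The median rests largely on these low genes. Mbd6 encodes a methyl-CpG-binding domain protein and is centred 8.04 kb from the centre of Ddit3 on its upstream side. On the scale of (FPKM + 1) it was the only neighbour past 2-fold. It had 13.2 FPKM against 4.85, from 4003 and 1999 counts, with an interval of 1.22 to 1.35 on the log2 scale. Mars1, the methionyl-tRNA synthetase gene on the opposite strand whose end overlaps that of Ddit3 by 68 bases, was at 26.0 against 23.6 with a ratio of 0.13. Gm4189, antisense and overlapping the start of Ddit3 by 15 bases, had 14 and 5 counts. Its log2 ratio was 0.37, and 2.07 without the pseudocount. Kif5a had a ratio of 0.24, R3hdm2 0.03, Gli1 0.01, Stac3 −0.02 and Gm20492 −0.07, and Arhgap9 had 0 counts against 15.

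**Figure D5:**
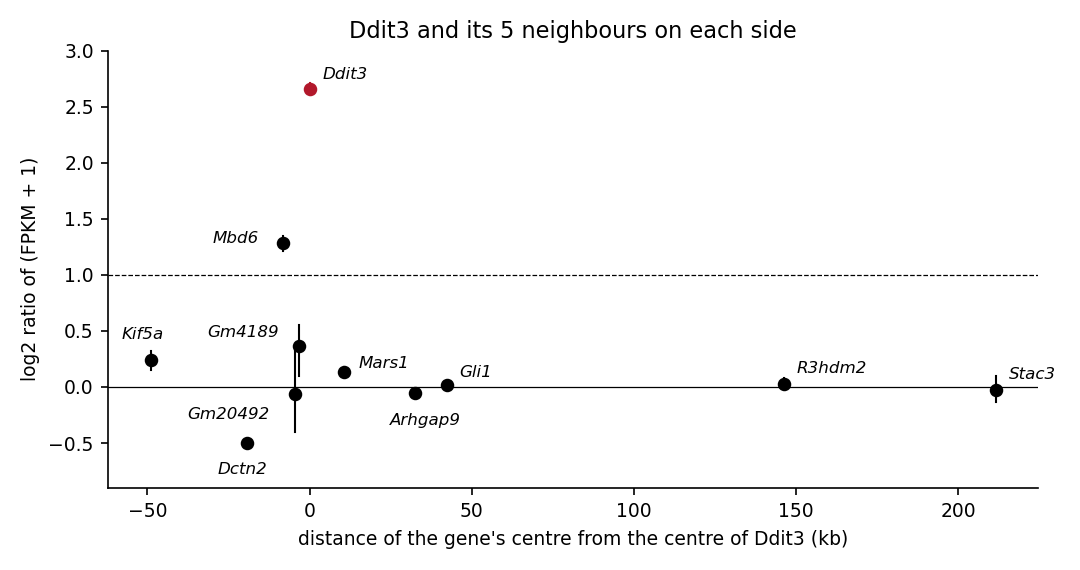
Log2 ratio of (FPKM + 1) of Ddit3 (red) and 5 genes on each side (black) against the distance of each gene's centre from that of Ddit3 in kb, with 95% exact counting intervals as bars. Mbd6 at 1.28 is the only neighbour above the dashed 2-fold line, and Mars1, which overlaps the end of Ddit3, is at 0.13.

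Reads shared between genes bear on 2 of the members. Of 1711 words of 31 bases in the exons of Ddit3, 116 or 6.78% occurred in other annotated genes, among them 75 in a second entry of the same name and 38 in the overlapping Mars1. The second entry lies within Ddit3 and has no value in these data. In Psat1 92 of 4214 words, or 2.18%, were shared with the pseudogene Gm12611, which has no value in these data either. The other 8 members shared none. Whether the counting used the strand is not given in the sources used here, so reads from Ddit3 and from the overlapping ends of Mars1 and Gm4189 cannot be told apart within the overlaps.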

How the data were processed

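RNA of primary mouse FAPs, 1 library per group by the labels, was sequenced as paired reads of 150 nt. The study's methods name STAR and FeatureCounts on mm10, while the submitters' processing notes list cutadapt 1.9, HISAT2 2.2.1, StringTie 2.1.6, DESeq2 and edgeR. Which of these made the files is not settled, and the annotation release is not given in the sources used here. The methods and the labels also describe different library kits. The authors deposited whole-number counts per gene and FPKM values rounded to 2 decimals, which scale a count by transcript length and library total. A single total and the summed exon length gave the FPKM back from the counts to within 1% for 98.7% and 98.8% of the genes checked in each library.

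The measure was the log2 ratio of (FPKM + 1). A count of 3 was the floor. Intervals are exact Clopper-Pearson intervals at 95% on a gene's share of its counts. They cover counting error only and narrow as counts grow. Whether molecular identifiers were counted is not given in the sources used here, and without them PCR reads are not independent molecules. Background genes had a mean of at least 1 FPKM. Gene positions, overlaps, exon GC content and length came from GENCODE M21 on mm10, which holds 99.7% of the gene identifiers. No count model was run, since 1 library per group leaves no spread to estimate. The calculation was tested on simulated counts that held counting error only. That check cannot show how the calls or intervals behave with spread between cultures or PCR duplicates.

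The members, the 17 gene lists and the comparisons were chosen with earlier results of these data known. Named genes were the 10 members, the 4 eIF2α kinases, up to 3 genes of each list by size of the ratio, 5 neighbours on each side of Ddit3, the 5 genes nearest to it in ratio, genes that share words with a member, and Tgfbr3. Pdgfra, Lum, Dpp4, Adgre1, Tyrobp, Fcer1g, Cebpb, Eif2b2, Slc6a9, Bcl2l11, Atf6, Xbp1 and Ern1 fall outside this rule. They were named after their values were seen. Alternatives were another pseudocount or none, centring, CPM from the counts, removal of the GC trend, a lower threshold and no level filter. Removal of the trend over exon length and rescaling without the 50 highest genes were added after seeing the data. Work was done in Python 3.11.15 with numpy 2.4.6, scipy 1.17.1, pandas 2.3.3 and matplotlib 3.10.9.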

Additional observations from a re-analysis of the deposited data

How the results depend on the processing

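The log2 ratio of Ddit3 was 2.72 with a pseudocount of 0.1, 2.73 with none, 2.53 after centring, 2.55 with the GC trend removed and 2.73 with the trend over exon length removed, each outside its counting interval of 2.60 to 2.72 before rounding. The median of the 10 members was 0.20 after centring. The count of 352 background genes called 2-fold higher was 645 with a pseudocount of 0.1 and 735 with none, which counts more low genes. In every alternative run, 2 of 10 members were 2-fold higher, 0 were 2-fold lower, and Ddit3 lay 2.22 to 2.44 above the median of the other 9. Removal of the length trend and rescaling without the 50 highest genes were chosen after seeing the data. Of the other 9 members, 7 moved by more than their counting interval on centring and 6 on removal of the GC trend. Atf4 went from 0.02 to −0.11 on centring and to 0.12 on removal of the GC trend. Why the ratios depend on GC content was not tested. Atf3, with 111 and 82 counts, has the widest interval, and depth limits it most. No paired analysis was possible because each group has 1 library, and for the same reason no replicate could be left out.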
